A study of Mus musculus with 14 samples.

Results

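The collagens of mouse are a family of 44 genes in the table used here, and 19 of them were expressed strongly enough in C2C12 myoblasts to be tested. The family was taken as every protein-coding gene whose GENCODE symbol is Col, a number, the letter a and a number, which gave 44 of the 49585 genes in the table. RNA had been sequenced from 14 libraries of C2C12 cells, a mouse muscle precursor line, carrying a short hairpin RNA against Foxm1 (shFoxM1) or a control hairpin (shControl). The groups were 4 libraries of activated shFoxM1 cells, 3 of activated shControl cells, 4 of quiescent shFoxM1 cells and 3 of quiescent shControl cells. All cells were of the same line and carried a hairpin. Quiescent cells had been detached with trypsin and held in a semi-solid methylcellulose medium, which arrests their cycle without attachment. The labels name the other state activated and do not say how it was reached or how long it lasted. They do not say whether libraries of a group came from separate cultures, so a p-value here reflects only how much these libraries vary, and that variation may be technical.

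Collagens are secreted proteins whose chains wind around each other into a rigid helix and then assemble outside the cell. Fibrillar collagens (types I, III, V and XI here) form the ropes of connective tissue, and fibril-associated collagens such as type XII coat and link those ropes. Type VI forms beaded microfilaments around muscle fibres, and type IV forms the sheet-like network of basement membranes. In muscle these proteins make up the sleeve around each fibre and much of the niche in which muscle stem cells rest.

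Estimated depth was 2.76e+07 to 3.57e+07 reads per library, and levels are in FPKM (fragments per kilobase of transcript, scaled to the mapped fragments). For a collagen transcript of median length, 1 FPKM stood for about 163 to 210.0 reads and 0.01 FPKM for about 1.63 to 2.1. The first principal component of all tested genes held 52.8% of the variance and put every activated library below 0 and every quiescent library above it. The quiescent shFoxM1 library of replicate 4 lay nearest the activated side, at 13.6, against 27.5 to 45.8 in the other quiescent libraries. Foxm1 itself had 14.5, 14.7, 27.6 and 11.2 FPKM in the activated shFoxM1 libraries, against 37.1, 35.3 and 34.9 FPKM in the activated shControl libraries. In quiescent cells it had 9.95, 6.61, 8.0 and 15.6 FPKM in the shFoxM1 libraries, against 23.9, 12.8 and 10.0 FPKM in the shControl libraries. The activated groups did not overlap and the quiescent ones did, and neither difference passed the test over all genes (limma, adjusted p = 0.624 in activated and 1 in quiescent cells). Of the myoblast markers Myod1, Myf5, Des, Cdh15, Msc, Cdh2 and Myf6, Myf6 alone stayed below 1 FPKM in every library. Msc peaked at 1.08 FPKM and was not tested either. Myod1 and Cdh15 were lower in activated cells (limma, adjusted p at most 0.0105). Their log2 fold changes of activated over quiescent were -1.86 and -1.84 in shFoxM1 cells and -1.38 and -1.79 in shControl cells. Myf5, Des and Cdh2 passed with neither hairpin. In bulk RNA, fewer cells that express a gene and less RNA per cell cannot be told apart.

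Start regions are shown for 4 members that are described in the results below, and the part of these sequences in those results was not tested. Col4a1 and Col4a2, which code for the main chains of basement membrane collagen, lie head to head on chromosome 8 with starts 21 bases apart and stayed in a near constant ratio. Col1a2 was among the most abundant members and fell on activation, and Col7a1 was higher in activated cells with either hairpin. Each sequence is 300 bases from RefSeq on GRCm38.p6, from 250 before to 50 after a start, read 5′ to 3′ on the gene's strand. Capitals mark the CCAAT box (CCAAT or ATTGG) and the GC box (GGGCGG or CCGCCC).
Col4a1: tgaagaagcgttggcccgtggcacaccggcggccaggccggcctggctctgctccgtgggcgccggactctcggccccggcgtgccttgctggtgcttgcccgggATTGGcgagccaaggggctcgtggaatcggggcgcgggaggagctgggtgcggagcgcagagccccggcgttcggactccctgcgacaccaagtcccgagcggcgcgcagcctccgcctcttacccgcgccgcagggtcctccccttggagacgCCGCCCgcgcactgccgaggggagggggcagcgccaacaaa
Col4a2: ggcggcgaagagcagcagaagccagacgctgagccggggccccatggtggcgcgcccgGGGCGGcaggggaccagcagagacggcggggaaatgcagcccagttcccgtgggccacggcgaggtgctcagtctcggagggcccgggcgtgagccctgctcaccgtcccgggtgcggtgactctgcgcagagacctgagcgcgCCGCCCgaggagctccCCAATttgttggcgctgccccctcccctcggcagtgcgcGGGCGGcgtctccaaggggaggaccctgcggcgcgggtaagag
Col1a2: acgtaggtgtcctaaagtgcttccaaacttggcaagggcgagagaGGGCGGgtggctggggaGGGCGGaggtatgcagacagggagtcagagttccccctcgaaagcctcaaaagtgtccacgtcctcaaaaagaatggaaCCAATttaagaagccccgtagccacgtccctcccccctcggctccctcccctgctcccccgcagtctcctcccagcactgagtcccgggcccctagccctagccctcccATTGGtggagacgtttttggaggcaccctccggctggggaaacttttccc
Col7a1: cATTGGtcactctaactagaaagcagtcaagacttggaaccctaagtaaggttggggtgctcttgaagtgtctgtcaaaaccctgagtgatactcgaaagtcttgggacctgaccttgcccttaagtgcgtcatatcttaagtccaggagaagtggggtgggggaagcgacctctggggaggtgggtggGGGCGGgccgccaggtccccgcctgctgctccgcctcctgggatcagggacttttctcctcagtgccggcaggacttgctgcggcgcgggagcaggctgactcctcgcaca

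The Col4a1 sequence is chr8:11312777-11313076 on the minus strand and the Col4a2 sequence is chr8:11312555-11312854 on the plus strand. They share 78 bases, chr8:11312777-11312854, each as the reverse complement of the other. The Col1a2 sequence is chr6:4505368-4505667 and the Col7a1 sequence is chr9:108953336-108953635, both on the plus strand. A start region was matched for 35 of the 44 members, 16 of them tested. The CCAAT box was found on either strand in 13 of these 35 genes and in 37.4% of the 32851 start regions of all genes. The GC box was found in 22 of the 35 genes and in 35.7% of all start regions. TATAAA or its complement was found in 5 genes and in 13.6% of all regions, and CANNTG, the E box bound by muscle regulators, in 20 genes and in 72.3% of all regions. TAAACA or its complement, a core of forkhead sites, was found in 6 genes and in 13.4% of all regions. Members were counted as genes and the background as start regions. The 35 genes had 38 start regions, of which 23 held the GC box, and the other counts were the same by region. The GC box at position 10 of Col4a1 and that at position 8 of Col4a2 are the same bases, counted for both genes. All of these are matches of letters in windows of one length and do not show that a factor binds there.

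Of the 44 members, 19 reached 1 FPKM in at least 3 libraries, the threshold for the test. They were 8 of 11 fibrillar genes, 2 of 9 fibril-associated genes, 3 of 6 beaded filament genes and 4 of 9 network genes. Col7a1, which forms the anchoring fibrils of skin, and Col18a1, 1 of 2 multiplexin genes, were tested too. Of the 4 transmembrane genes and the 2 genes of other classes, none was tested. Of the 25 untested members, 23 stayed below 1 FPKM in every library, with a highest value of 0.98 FPKM, and Col13a1 and Col6a6 were listed at 0 throughout. The other two, Col14a1 and Col23a1, peaked at 1.21 and 1.08 FPKM. The untested members below 1 FPKM included the cartilage genes Col2a1, Col9a1, Col9a2, Col9a3 and Col10a1, the kidney and basement membrane chains Col4a3, Col4a4 and Col4a6, and the skin gene Col17a1. The others were Col24a1, Col27a1, Col19a1, Col20a1, Col22a1, Col6a4, Col6a5, Col8a2, Col15a1, Col25a1, Col26a1 and Col28a1.

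**Figure D1:**
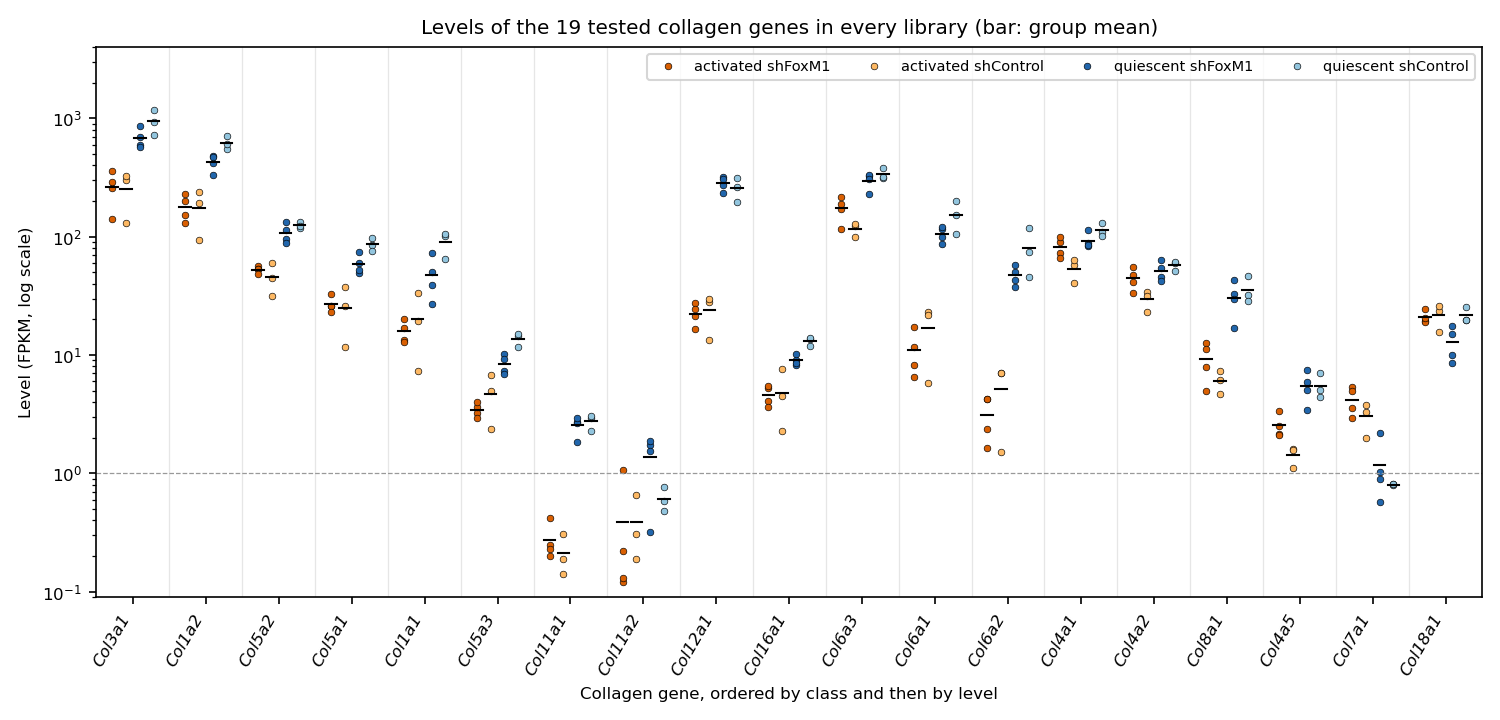
Levels (FPKM, log scale) of the 19 tested collagen genes in every library, ordered by class, with 1 point per library and a bar at each group mean. Most members sit lower in the activated groups (orange) than in the quiescent groups (blue), while Col7a1 sits higher.

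FPKM are scaled to transcript length, so genes were ordered by FPKM here. Other differences between transcripts, such as GC content, can still shift that order. Col3a1 had the highest mean in all 4 groups, followed by Col1a2 and Col6a3, and was above Col1a2 in every library. In activated shFoxM1 replicate 3, however, Col6a3 was above Col3a1, at 217 against 140.5 FPKM. Col1a2 and Col6a3 changed places between libraries of the activated groups, where Col6a3 was above Col1a2 in some. The places below these differed between the states. Col12a1 took the fourth place in both quiescent groups, at 285 ± 39.0 FPKM in shFoxM1 cells and 257 ± 58.6 FPKM in shControl cells. It took the eighth place in both activated groups, at 22.3 ± 4.56 FPKM in shFoxM1 cells and 23.8 ± 9.01 FPKM in shControl cells (SD, n = 4 for shFoxM1 and 3 for shControl groups here and below). The fourth place in activated cells was that of Col4a1, at 81.8 ± 15.0 FPKM with shFoxM1 and 53.8 ± 11.9 FPKM with shControl.

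Summed over the family, collagen transcripts were at 917.8 ± 80.9 FPKM in activated shFoxM1 cells, against 2269.5 ± 211.4 FPKM in quiescent shFoxM1 cells. In shControl cells the sum was 806.7 ± 277.8 FPKM in activated libraries, against 2957.9 ± 346.2 FPKM in quiescent libraries. The highest activated library had a sum of 1025.6 FPKM and the lowest quiescent library 2043.2 FPKM, so the states did not overlap. As a share of all nuclear protein-coding FPKM, collagens made up 0.15% in activated and 0.462% in quiescent shFoxM1 cells, and 0.123% in activated and 0.57% in quiescent shControl cells.

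The mean fibrillar share of that sum was close in both states, while the mean fibril-associated and network shares differed. Fibrillar genes held 58.1 ± 10.4% of collagen FPKM in activated and 58.5 ± 4.05% in quiescent shFoxM1 cells. They held 63.3 ± 6.29% and 63.4 ± 3.31% in activated and quiescent shControl cells. Single activated shFoxM1 libraries ran from 45.3 to 70.5%. Fibril-associated genes held 2.96% in activated against 13.0% in quiescent shFoxM1 cells, and 3.54% in activated against 9.37% in quiescent shControl cells. Most of this class was Col12a1 alone, with 285 of 294.6 FPKM in quiescent shFoxM1 and 257 of 271.0 FPKM in quiescent shControl cells. Network genes went the other way, with 15.3% in activated against 7.99% in quiescent shFoxM1 cells, and 11.8% in activated against 7.24% in quiescent shControl cells. The beaded filament share ranged from 18.0 to 20.8% over the 4 group means, and from 12.7 to 28.6% over single activated shFoxM1 libraries.

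**Figure D2:**
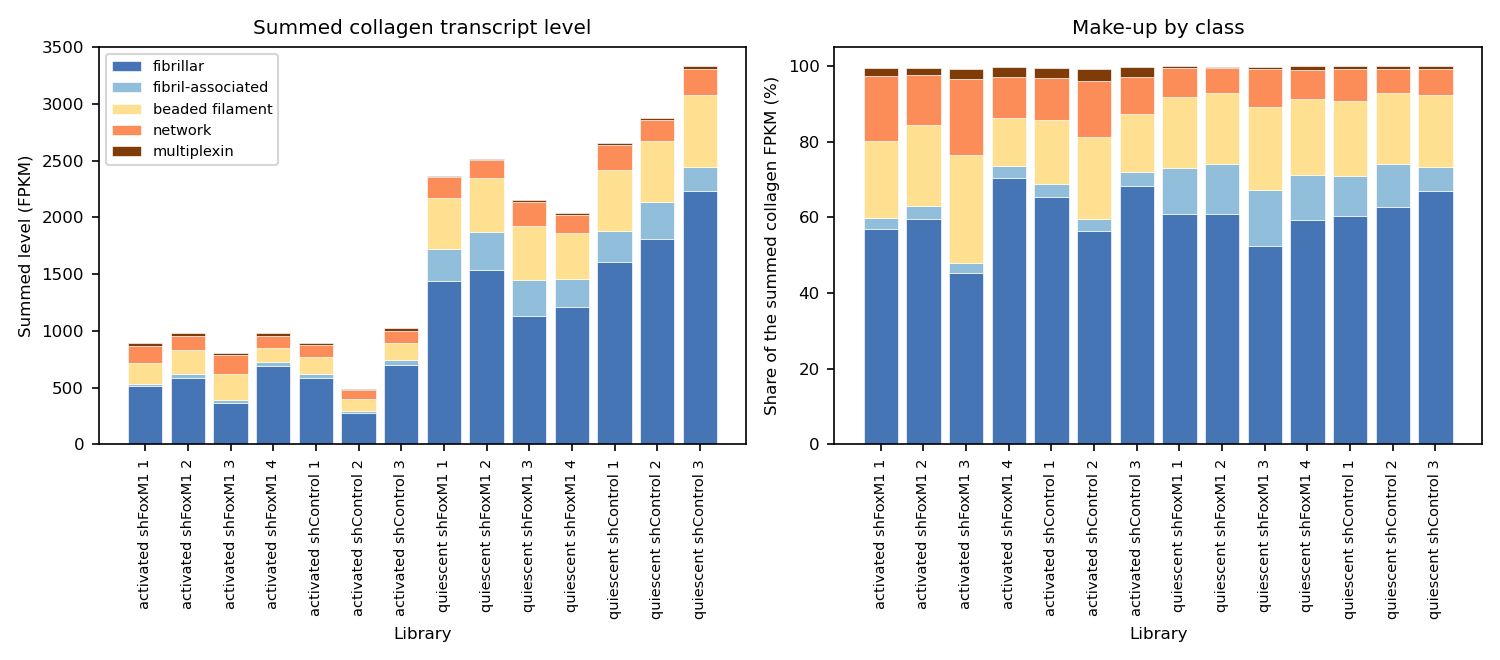
Summed collagen level per library (left, FPKM) and the share of each class in that sum (right, %), with libraries ordered by group and 5 classes stacked. Activated libraries reach at most 1025.6 FPKM and quiescent libraries at least 2043.2 FPKM, and the fibril-associated share is larger in quiescent libraries.

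Most expressed collagen genes were lower in activated than in quiescent cells with either hairpin. In shFoxM1 cells 15 of the 19 tested members fell and 2 rose, on a background of 30.7% of the 12432 tested genes called, 12.3% lower and 18.3% higher (limma on log2(FPKM + 1), Benjamini-Hochberg adjusted p below 0.05). In shControl cells 16 fell and 1 rose, on a background of 28.3% called, 16.5% lower and 11.7% higher. The counts of both hairpins include Col11a1 and Col7a1, and that of shFoxM1 cells also Col11a2. These genes reached 1 FPKM in fewer than 3 libraries of the state where they were lower. They passed the filter mainly or only through the other state, so a difference was built into their selection. The median log2 fold change (activated over quiescent) of the tested members was -1.07 in shFoxM1 and -1.52 in shControl cells, beside 0.03 and -0.11 over all tested genes. Log2 fold changes of members that fell ran from -3.63 to -0.76 (Col11a2) in shFoxM1 cells, with adjusted p from limma of 4.08e-07 to 0.0355 (Col11a2). In shControl cells they ran from -3.78 to -0.94, with adjusted p from limma of 3.64e-06 to 0.00432. These values are on the log2(FPKM + 1) scale, which understates the changes of low genes, and below they are given with their standard error.

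Overlap of the states is given within each hairpin here and for the single genes below. Of the 19 tested members, 14 had every activated shFoxM1 library below every quiescent one and 2 had every one above. In shControl cells 16 did not overlap downward and 1 upward. Among all tested genes, 10.5% did not overlap downward and 17.3% upward in shFoxM1 cells, and 26.6% downward and 17.5% upward in shControl cells. Log2 fold changes were below 0 for 17 of the 19 tested members with shFoxM1 and 18 with shControl, beside 5942 and 7215 of the 12432 tested genes. Over all 44 members without a filter, 18 did not overlap downward and 3 upward in shFoxM1 cells, and 23 and 1 in shControl cells. Means were lower in activated cells for 32 of 44 members with shFoxM1 and 29 of 44 with shControl. Many untested members lay at hundredths of 1 FPKM, so these counts over 44 members have no matching background here.

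How libraries are scaled moved the split of all called genes. Of all called genes, 59.8% were higher in activated shFoxM1 cells and 41.5% in activated shControl cells. With every library scaled to an equal protein-coding sum these shares were 23.9% and 12.4%, and with median-of-ratios scaling 53.0% and 54.5%. Equal sums moved the median of all genes to -0.25 in shFoxM1 and -0.41 in shControl cells. Lower collagens numbered 16 under equal sums and 15 under median-of-ratios scaling in shFoxM1 cells, and 16 under either in shControl cells. Of all 12432 tested genes, 3002 were called lower under equal sums and 1760 under median-of-ratios scaling in shFoxM1 cells. In shControl cells these counts over all tested genes were 4200 and 1686. Under equal sums 1 collagen rose in shFoxM1 cells, since Col18a1 no longer passed, and Col4a2 was added to those that fell.

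**Figure D3:**
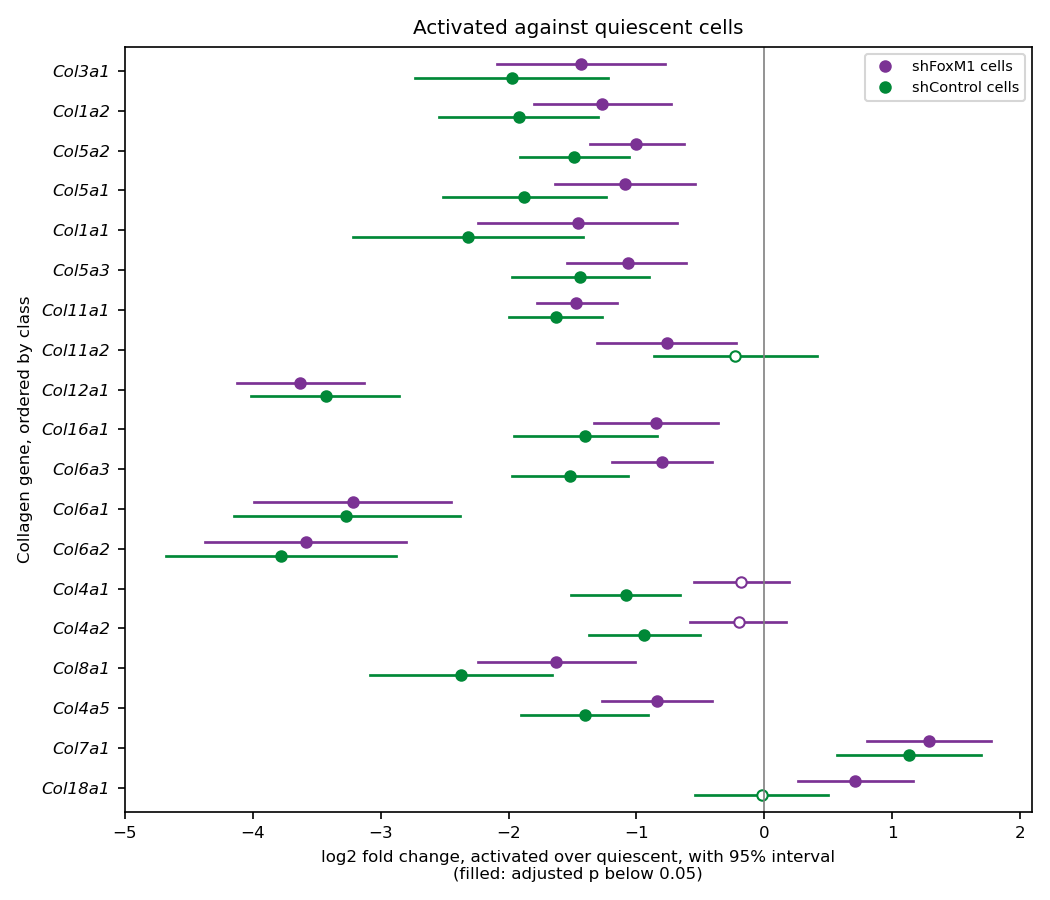
Log2 fold change of activated over quiescent cells for the 19 tested collagen genes in shFoxM1 (purple) and shControl (green) cells, with 95% intervals from limma and filled points where the adjusted p is below 0.05. Col12a1, Col6a1 and Col6a2 lie below -3 with both hairpins, and Col7a1 lies above 0 with both.

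Among the fibrillar genes, Col3a1 and Col1a2 were the most abundant. Col3a1, the sole chain of type III collagen in the soft sheaths of muscle, had 259, 288, 140.5 and 357 FPKM in the activated shFoxM1 libraries, against 701, 854, 595 and 567 FPKM in the quiescent shFoxM1 libraries. It had 299.7, 131 and 326 FPKM in the activated shControl libraries, against 723, 923 and 1179 FPKM in the quiescent shControl libraries. Every activated library was below every quiescent library of the same hairpin, and Col3a1 changed by a log2 fold of -1.43 ± 0.31 (adjusted p = 0.00324) in shFoxM1 cells and -1.97 ± 0.35 (adjusted p = 0.00148) in shControl cells (limma). Col1a2, a chain of type I collagen, the main fibril of tendon, skin and bone, had 152, 201, 130.5 and 228 FPKM in the activated shFoxM1 libraries, against 478, 468, 330.5 and 419 FPKM in the quiescent shFoxM1 libraries. With the control hairpin Col1a2 had 193, 93.8 and 238 FPKM in the activated shControl libraries, against 546, 606 and 711 FPKM in the quiescent shControl libraries. The states again stood apart, with a log2 fold change of -1.27 ± 0.25 (adjusted p = 0.00219) in shFoxM1 cells and -1.92 ± 0.29 (adjusted p = 0.00057) in shControl cells (limma).

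Col1a1, the other chain of type I collagen and the more frequent one in the protein, had far lower FPKM than Col1a2. Its levels were 13.4, 12.98, 16.8 and 20.01 FPKM in the activated shFoxM1 libraries, against 39.3, 27.1, 50.4 and 73.2 FPKM in the quiescent shFoxM1 libraries. They were 19.4, 7.29 and 33.2 FPKM in the activated shControl libraries, against 102, 65.3 and 105 FPKM in the quiescent shControl libraries. Within each hairpin the states did not overlap, although Col1a1 in activated shControl libraries spread widely, with replicate 2 lowest. The log2 fold change was -1.46 ± 0.37 (adjusted p = 0.00814) in shFoxM1 cells and -2.32 ± 0.42 (adjusted p = 0.00167) in shControl cells (limma).

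Type V collagen starts fibrils and limits their thickness, and its chains fell as well. Col5a2 had 56.05, 53.4, 52.97 and 48.4 FPKM in the activated shFoxM1 libraries, against 132, 114, 94.96 and 87.8 FPKM in the quiescent shFoxM1 libraries. Values of Col5a2 were 44.7, 31.6 and 59.3 FPKM in the activated shControl libraries, against 132, 119 and 123 FPKM in the quiescent shControl libraries. No activated library reached a quiescent one, and the log2 fold change was -1.0 ± 0.17 (adjusted p = 0.000972) in shFoxM1 cells and -1.49 ± 0.20 (adjusted p = 0.000265) in shControl cells (limma). Col5a1 had 26.02, 25.9, 22.9 and 33.04 FPKM in the activated shFoxM1 libraries, against 74.3, 59.4, 49.5 and 52.5 FPKM in the quiescent shFoxM1 libraries. For the control hairpin Col5a1 had 25.9, 11.8 and 37.5 FPKM in the activated shControl libraries, against 84.5, 76.2 and 97.7 FPKM in the quiescent shControl libraries. The states stood apart for Col5a1 too, with a log2 fold change of -1.09 ± 0.26 (adjusted p = 0.00573) in shFoxM1 cells and -1.88 ± 0.30 (adjusted p = 0.00078) in shControl cells (limma). Col5a3, a minor chain of type V, had 3.21, 3.67, 4.03 and 2.92 FPKM in the activated shFoxM1 libraries, against 10.2, 7.26, 6.94 and 9.28 FPKM in the quiescent shFoxM1 libraries. It was measured at 5.01, 2.37 and 6.72 FPKM in the activated shControl libraries, against 14.4, 11.7 and 14.9 FPKM in the quiescent shControl libraries. For Col5a3 the states did not overlap, with a log2 fold change of -1.07 ± 0.22 (adjusted p = 0.00236) in shFoxM1 cells and -1.44 ± 0.25 (adjusted p = 0.0013) in shControl cells (limma).

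Col11a1 and Col11a2, chains of the type XI collagen that seeds fibrils of cartilage, were low. Col11a1 had 0.25, 0.42, 0.23 and 0.20 FPKM in the activated shFoxM1 libraries, against 2.72, 2.67, 2.93 and 1.85 FPKM in the quiescent shFoxM1 libraries. In shControl cells it had 0.31, 0.14 and 0.19 FPKM in the activated shControl libraries, against 2.94, 3.07 and 2.30 FPKM in the quiescent shControl libraries. Col11a1 reached 1 FPKM only in quiescent libraries and passed the filter through them, so a difference between the states was built into its selection. Its log2 fold change was -1.47 ± 0.15 (adjusted p = 1.78e-05) in shFoxM1 cells and -1.63 ± 0.17 (adjusted p = 4.08e-05) in shControl cells (limma), and -2.83 and -3.22 with a pseudocount of 0.1 FPKM. Col11a2 had 0.12, 0.22, 0.13 and 1.07 FPKM in the activated shFoxM1 libraries, against 1.75, 1.88, 1.54 and 0.32 FPKM in the quiescent shFoxM1 libraries, and here replicate 4 of each state stood away from the other three. It had 0.19, 0.31 and 0.66 FPKM in the activated shControl libraries, against 0.77, 0.58 and 0.48 FPKM in the quiescent shControl libraries. Col11a2 reached 1 FPKM in 4 libraries, 3 of them quiescent and 1 activated, so it too passed the filter mainly through the group where it was higher. The states overlapped for Col11a2 with both hairpins. It fell in shFoxM1 cells, with a log2 fold change of -0.76 ± 0.26 (adjusted p = 0.0355) (limma), and had -0.23 ± 0.30 (adjusted p = 0.59) in shControl cells, which did not pass. The call in shFoxM1 cells was lost without the filter on low values (adjusted p = 0.0723), with the GC and length trend removed (adjusted p = 0.121), with only the groups compared (adjusted p = 0.0769), with the replicate number as a block (adjusted p = 0.0534) and when any 1 of replicates 1 to 3 of either shFoxM1 state was left out (limma). With both replicate 4 libraries of shFoxM1 cells left out, Col11a2 had -1.23 (adjusted p = 0.000174, limma).

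Col12a1 is a long fibril-associated collagen of tendon and the muscle sheath. Col12a1 had 21.2, 27.2, 16.6 and 24.2 FPKM in the activated shFoxM1 libraries, against 272, 322, 309 and 235 FPKM in the quiescent shFoxM1 libraries. In control cells its levels were 28.2, 13.4 and 29.7 FPKM in the activated shControl libraries, against 263, 313 and 196 FPKM in the quiescent shControl libraries. The mean quiescent FPKM of Col12a1 was 12.8 times the activated mean in shFoxM1 cells and 10.8 times in shControl cells. The log2 fold change was -3.63 ± 0.23 (adjusted p = 4.08e-07) in shFoxM1 cells and -3.43 ± 0.27 (adjusted p = 3.64e-06) in shControl cells, from limma. Col16a1, a minor fibril-associated collagen, had 4.10, 5.29, 3.62 and 5.45 FPKM in the activated shFoxM1 libraries, against 9.08, 10.2, 8.22 and 8.59 FPKM in the quiescent shFoxM1 libraries. With the control hairpin it had 4.48, 2.27 and 7.57 FPKM in the activated shControl libraries, against 11.9, 13.6 and 14 FPKM in the quiescent shControl libraries. Col16a1 did not overlap between states either, and changed by -0.85 ± 0.23 (adjusted p = 0.0119) in shFoxM1 cells and -1.40 ± 0.26 (adjusted p = 0.00191) in shControl cells on the log2 scale (limma).

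Type VI collagen forms microfilaments next to the basement membrane of muscle fibres, and loss of it causes muscle disease in humans. Col6a1 had 8.26, 17.2, 11.7 and 6.55 FPKM in the activated shFoxM1 libraries, against 86.5, 99.03, 115 and 120.1 FPKM in the quiescent shFoxM1 libraries. Col6a1 in the other cells had 22.9, 5.82 and 21.8 FPKM in the activated shControl libraries, against 105, 153 and 202 FPKM in the quiescent shControl libraries. All activated libraries were far below the quiescent ones, with a log2 fold change of -3.22 ± 0.36 (adjusted p = 4.16e-05) in shFoxM1 cells and -3.27 ± 0.42 (adjusted p = 0.000178) in shControl cells (limma). Col6a2, which lies near Col6a1 on chromosome 10 in the same orientation, had 2.35, 4.26, 4.29 and 1.65 FPKM in the activated shFoxM1 libraries, against 37.8, 43.2, 49.9 and 57.5 FPKM in the quiescent shFoxM1 libraries. The shControl values of Col6a2 were 7.08, 1.52 and 7.0 FPKM in the activated shControl libraries, against 46, 74.04 and 119 FPKM in the quiescent shControl libraries. Mean quiescent FPKM of Col6a2 was 15.0 times the activated mean in shFoxM1 cells and 15.3 times in shControl cells, and its log2 fold change was -3.58 ± 0.37 (adjusted p = 2.01e-05) in shFoxM1 cells and -3.78 ± 0.42 (adjusted p = 7.19e-05) in shControl cells (limma). Col6a3, the largest type VI chain, had 171, 189, 217 and 116 FPKM in the activated shFoxM1 libraries, against 322, 332, 308 and 228 FPKM in the quiescent shFoxM1 libraries. It had 122, 100.2 and 128 FPKM in the activated shControl libraries, against 381, 311 and 316 FPKM in the quiescent shControl libraries. The states did not overlap for Col6a3, but its log2 fold change was nearer 0 than those of its partners, a difference that was not tested, at -0.80 ± 0.18 (adjusted p = 0.00507) in shFoxM1 cells and -1.52 ± 0.21 (adjusted p = 0.000353) in shControl cells (limma). With a trend on GC content and transcript length removed, the call of Col6a3 in shFoxM1 cells was lost (log2 fold change -0.53, adjusted p = 0.0603, limma).

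All tested network collagens were called lower in activated shControl cells, while in shFoxM1 cells only Col4a5 and Col8a1 were. Col4a1, the most abundant basement membrane chain, had 89.8, 72.8, 98.5 and 65.9 FPKM in the activated shFoxM1 libraries, against 87.9, 82.7, 114 and 85.5 FPKM in the quiescent shFoxM1 libraries. In these shFoxM1 cells the states overlapped. Col4a1 had 57.95, 40.4 and 63.01 FPKM in the activated shControl libraries, against 110.2, 100.4 and 131 FPKM in the quiescent shControl libraries, and here every activated library was lower. Col4a2, its partner in the protein, had 47.8, 41.3, 55.1 and 33.6 FPKM in the activated shFoxM1 libraries, against 45.5, 41.9, 62.95 and 54.02 FPKM in the quiescent shFoxM1 libraries. For the control hairpin Col4a2 had 34.3, 23.2 and 31.8 FPKM in the activated shControl libraries, against 60.01, 51.4 and 60.6 FPKM in the quiescent shControl libraries. Both fell in shControl cells, with a log2 fold change of -1.08 ± 0.20 (adjusted p = 0.00172) for Col4a1 and -0.94 ± 0.20 (adjusted p = 0.00432) for Col4a2 (limma). Neither passed the test in shFoxM1 cells, where the values were -0.18 ± 0.17 (adjusted p = 0.456) and -0.20 ± 0.18 (adjusted p = 0.413) (limma). The calls moved with the processing. With the GC and length trend removed, Col4a1 in shControl cells had -0.67 (adjusted p = 0.0224) and Col4a2 had -0.50 (adjusted p = 0.0995), while equal protein-coding sums gave Col4a2 in shFoxM1 cells -0.51 (adjusted p = 0.0425, limma).

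Col4a5, a chain of other basement membrane networks, had 2.52, 3.39, 2.15 and 2.09 FPKM in the activated shFoxM1 libraries, against 5.07, 5.87, 7.43 and 3.43 FPKM in the quiescent shFoxM1 libraries. It had 1.60, 1.12 and 1.58 FPKM in the activated shControl libraries, against 4.38, 5.07 and 7.06 FPKM in the quiescent shControl libraries. The states stood apart with both hairpins, and Col4a5 changed by -0.84 ± 0.20 (adjusted p = 0.00642) in shFoxM1 cells and -1.40 ± 0.23 (adjusted p = 0.00102) in shControl cells on the log2 scale (limma). Col8a1, a short network collagen of vessel walls and the cornea, had 12.5, 11.3, 7.97 and 4.93 FPKM in the activated shFoxM1 libraries, against 43.1, 32.5, 29.9 and 16.8 FPKM in the quiescent shFoxM1 libraries. Its shControl levels were 6.12, 7.30 and 4.66 FPKM in the activated shControl libraries, against 46.3, 32.2 and 28.4 FPKM in the quiescent shControl libraries. Col8a1 did not overlap between states and had a log2 fold change of -1.63 ± 0.29 (adjusted p = 0.00106) in shFoxM1 cells and -2.37 ± 0.33 (adjusted p = 0.000364) in shControl cells (limma).

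A single tested collagen rose on activation with both hairpins. Col7a1 had 5.34, 3.55, 5.0 and 2.92 FPKM in the activated shFoxM1 libraries, against 1.02, 0.57, 0.89 and 2.19 FPKM in the quiescent shFoxM1 libraries. It had 3.32, 3.77 and 2.0 FPKM in the activated shControl libraries, against 0.79, 0.81 and 0.81 FPKM in the quiescent shControl libraries. Within each hairpin every activated library was above every quiescent one. The quiescent shFoxM1 library of replicate 4 came close and was above the lowest activated shControl library. Mean activated FPKM was 3.6 times the quiescent mean in shFoxM1 cells and 3.77 times in shControl cells. The log2 fold change of Col7a1 was 1.29 ± 0.23 (adjusted p = 0.00103) in shFoxM1 cells and 1.13 ± 0.26 (adjusted p = 0.00615) in shControl cells (limma). In shControl cells it was 1.75 with a pseudocount of 0.1 FPKM and 1.71 with a trend on GC content and transcript length removed. Col7a1 reached 1 FPKM in all activated but only 2 quiescent libraries, so it owed its place in the test mainly to the activated ones.

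Col18a1, a basement membrane collagen whose end fragment is endostatin, had 19.4, 18.98, 20.6 and 24.6 FPKM in the activated shFoxM1 libraries, against 8.52, 9.97, 15.1 and 17.6 FPKM in the quiescent shFoxM1 libraries. It had 23.4, 15.6 and 25.8 FPKM in the activated shControl libraries, against 19.7, 19.6 and 25.4 FPKM in the quiescent shControl libraries. The states did not overlap in shFoxM1 cells and did so in shControl cells. Col18a1 rose in shFoxM1 cells, with a log2 fold change of 0.71 ± 0.21 (adjusted p = 0.02) (limma), and had -0.02 ± 0.24 (adjusted p = 0.96) in shControl cells, a value whose sign changed under median-of-ratios scaling. The call in shFoxM1 cells was lost with equal protein-coding sums (0.42, adjusted p = 0.137) and without quiescent shFoxM1 replicate 1 (adjusted p = 0.0663) or 2 (adjusted p = 0.0649, limma).

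Members below the threshold were tested once without any filter, over 24415 genes. In shFoxM1 cells 4 of them were then lower in activated cells (Col24a1, Col14a1, Col8a2 and Col28a1) and 1 higher (Col17a1), on a background of 5.72% of all genes in that fit lower and 8.33% higher. In shControl cells 3 were lower (Col24a1, Col27a1 and Col8a2) and 0 higher, on a background of 7.41% lower and 4.88% higher. Col24a1, a fibrillar gene, ranged over 0.03 to 0.06 FPKM in activated and 0.32 to 0.98 FPKM in quiescent shFoxM1 cells. It ranged over 0.04 to 0.08 FPKM in activated and 0.49 to 0.78 FPKM in quiescent shControl cells, and its log2 fold changes were -0.72 and -0.64 (limma without filter, adjusted p = 0.0016 in shFoxM1 and 0.00715 in shControl cells). Col17a1, a transmembrane collagen of skin attachment, ranged over 0.09 to 0.23 FPKM in activated against 0.01 to 0.05 FPKM in quiescent shFoxM1 cells. Log2 fold changes at these levels are strongly compressed by the added 1 FPKM.

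Ratios within a library compare members with each other and do not depend on how libraries were scaled. Col4a1 was 1.85 ± 0.0898 times Col4a2 in activated shFoxM1 cells, against 1.82 ± 0.176 times in quiescent shFoxM1 cells. In shControl cells it was 1.8 ± 0.159 times Col4a2 when activated and 1.98 ± 0.166 times when quiescent. The ratio stayed between 1.58 and 2.16 in all 14 libraries, although Col4a1 itself spanned 40.4 to 131 FPKM. Col3a1 over Col1a2 ranged over 1.08 to 1.83 in single libraries, with group means of 1.44 in activated and 1.61 in quiescent shFoxM1 cells and of 1.44 in activated and 1.5 in quiescent shControl cells.

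Other ratios separated the states. Col6a1 was 3.56 ± 0.609 times Col6a2 in activated against 2.24 ± 0.104 times in quiescent shFoxM1 cells, and 3.39 ± 0.382 times in activated against 2.02 ± 0.293 times in quiescent shControl cells. Col6a3 was 17 ± 4.2 times Col6a1 in activated against 2.91 ± 0.805 times in quiescent shFoxM1 cells. In shControl cells Col6a3 was 9.47 ± 6.71 times Col6a1 when activated, with a lowest library of 5.32, and 2.41 ± 1.08 times when quiescent, with a highest library of 3.63. Col3a1 was 11.5 ± 2.65 times Col12a1 in activated against 2.39 ± 0.326 times in quiescent shFoxM1 cells. It was 10.5 ± 0.613 times Col12a1 in activated against 3.9 ± 1.83 times in quiescent shControl cells. For these 3 ratios activated and quiescent libraries of a hairpin did not overlap. Col1a2 over Col1a1 did overlap, with 11.5 ± 3.17 in activated against 10.4 ± 5.38 in quiescent shFoxM1 cells, and 9.98 ± 2.85 in activated against 7.15 ± 1.98 in quiescent shControl cells.

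**Figure D4:**
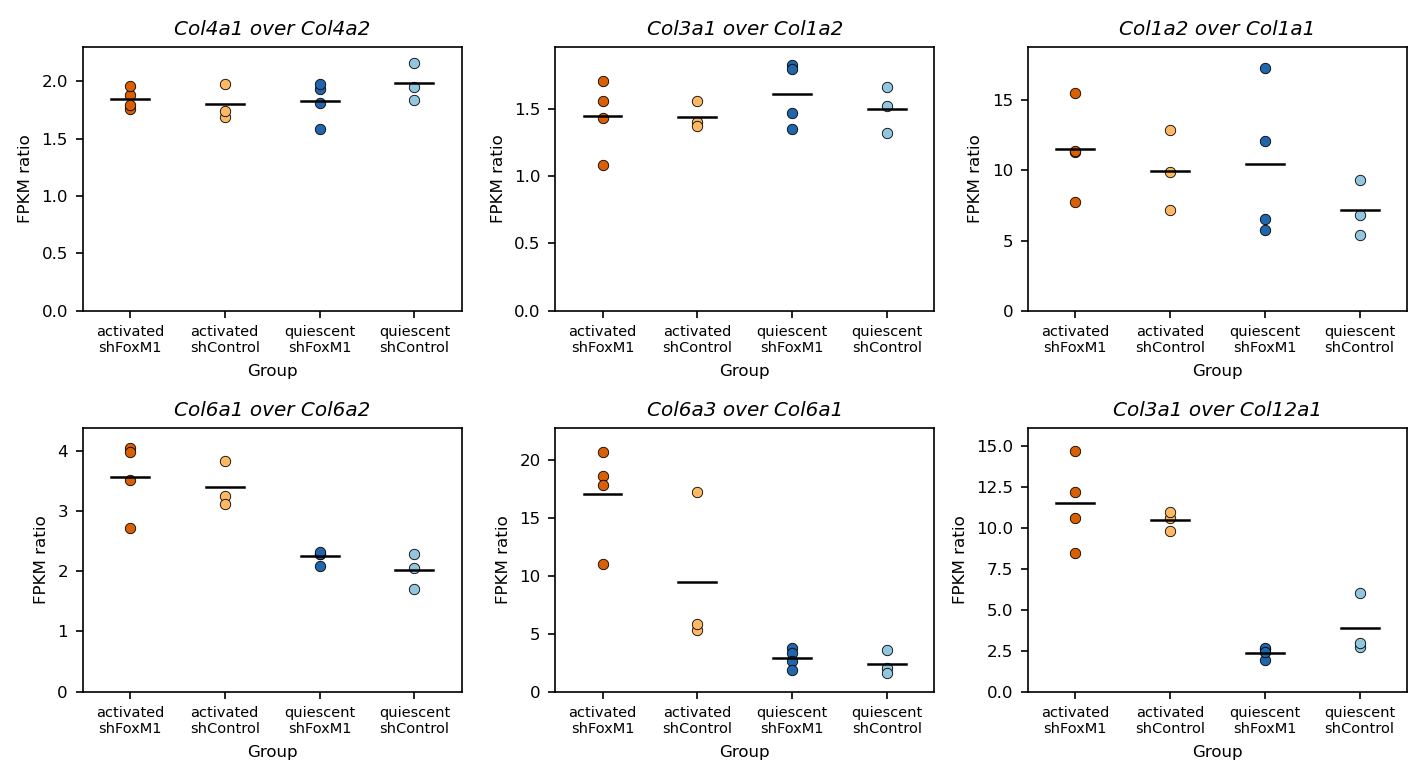
Ratio of FPKM between pairs of collagen genes in each library (1 panel per pair, points for libraries, bar for the group mean, axes from 0). Col4a1 over Col4a2 stays between 1.58 and 2.16 in every library, while Col6a3 over Col6a1 and Col3a1 over Col12a1 are higher in activated than in quiescent libraries.

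The hairpin against Foxm1 gave no collagen gene past the threshold in either state. In activated cells 0 of 19 tested members passed, on a background of 0.0% of 12432 genes called, and 4 members had an unadjusted p below 0.05 from limma, as had 978 of all tested genes (7.87%). These were Col4a1, Col4a2, Col4a5 and Col6a3, which were all higher in shFoxM1 cells. Col4a1 was at 81.8 ± 15.0 FPKM in activated shFoxM1 cells and 53.8 ± 11.9 FPKM in activated shControl cells, and the library values above did not overlap. Its log2 fold change of shFoxM1 over shControl was 0.60 ± 0.19 (adjusted p = 0.624). Col4a2 was at 44.5 ± 9.15 FPKM in activated shFoxM1 and 29.8 ± 5.79 FPKM in activated shControl cells, with 0.56 ± 0.19 (adjusted p = 0.624). Col6a3 was at 173 ± 42.4 FPKM in activated shFoxM1 and 117 ± 14.6 FPKM in activated shControl cells, with 0.54 ± 0.20 (adjusted p = 0.624). Col4a5 was at 2.54 ± 0.599 FPKM in activated shFoxM1 and 1.43 ± 0.272 FPKM in activated shControl cells, with 0.53 ± 0.22 (adjusted p = 0.629). Col4a2 and Col6a3 overlapped between the hairpins, and Col4a5 did not. The median over the 19 members was 0.08 in activated cells, beside 0.11 for all tested genes. With single libraries left out it ran from -0.21 without activated shControl replicate 2 to 0.34 without activated shControl replicate 3, so its sign rested on single libraries.

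In quiescent cells 0 of 19 members passed, again with 0.0% of all genes called, and 3 members had an unadjusted p below 0.05 from limma, as had 263 of all tested genes (2.12%). Col18a1 was at 12.8 ± 4.28 FPKM in quiescent shFoxM1 and 21.6 ± 3.32 FPKM in quiescent shControl cells, with a log2 fold change of -0.75 ± 0.23 (adjusted p = 1). Col5a3 was at 8.43 ± 1.59 FPKM in quiescent shFoxM1 and 13.7 ± 1.73 FPKM in quiescent shControl cells, with -0.65 ± 0.23 (adjusted p = 1). Neither gene overlapped between the hairpins. Col1a1 was at 47.5 ± 19.6 FPKM in quiescent shFoxM1 and 90.6 ± 21.9 FPKM in quiescent shControl cells, with -0.98 ± 0.39 (adjusted p = 1), and did overlap. Of the 19 tested members, 5 had every quiescent shFoxM1 library below every quiescent shControl library, beside 2.45% of all tested genes. They were Col1a2, Col5a1, Col5a3, Col16a1 and Col18a1, and 0 showed the reverse, beside 0.668%. In activated cells 0 of the 19 were lower and 2 higher without overlap (Col4a1 and Col4a5), beside 2.73% and 6.68%. Among untested members, Col27a1 was lower without overlap in quiescent cells, and Col17a1 and Col4a6 were higher in activated cells. The median over the 19 members in quiescent cells was -0.30, beside -0.02 for all tested genes.

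**Figure D5:**
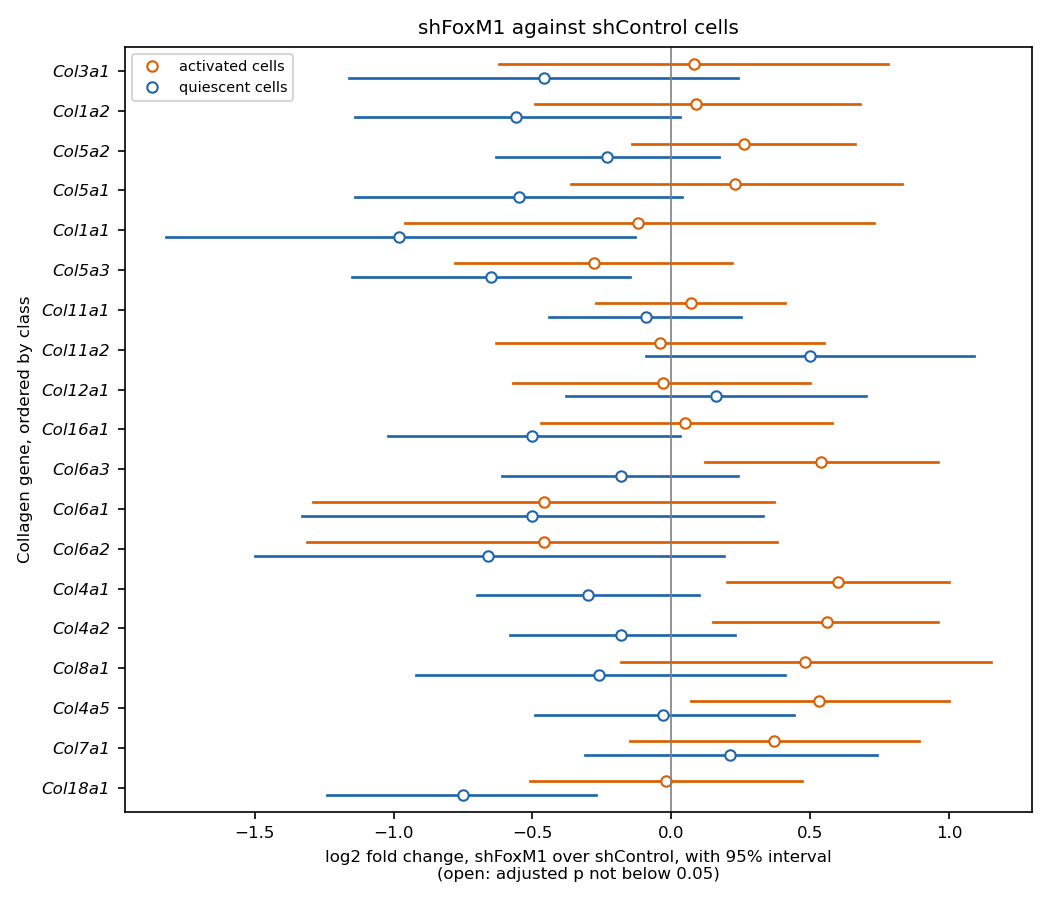
Log2 fold change of shFoxM1 over shControl cells for the 19 tested collagen genes in activated (orange) and quiescent (blue) cells, with 95% intervals from limma. All points are open because no adjusted p is below 0.05, and the intervals of Col4a1, Col4a2, Col4a5 and Col6a3 in activated cells and of Col1a1, Col5a3 and Col18a1 in quiescent cells lie away from 0.

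Whether activation acted differently with the 2 hairpins was tested directly, as the response in shFoxM1 cells minus that in shControl cells. No collagen passed (0 of 19), with 0.0% of all genes called, 433 genes (3.48%) below an unadjusted p of 0.05, and 4 of these collagens. Col4a1 had a difference of 0.90 on the log2 scale (95% interval 0.34 to 1.47, unadjusted p = 0.0038, adjusted p = 0.993, limma). Col4a2 had 0.74 (0.16 to 1.31), Col6a3 had 0.72 (0.13 to 1.32) and Col18a1 had 0.73 (0.04 to 1.42), each with an adjusted p of 0.993 from limma. So the calls of Col4a1 and Col4a2 in shControl cells alone, and of Col18a1 and Col11a2 in shFoxM1 cells alone, are not shown to differ between the hairpins. Positive values mean a smaller fall or a larger rise with shFoxM1. The median difference was 0.55 over the 19 members and 0.13 over all genes, and without activated shControl replicate 2 the median of the members was 0.26.

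Genes that build, handle, bind or accompany collagen were taken as 6 lists. In each list more members fell than rose on activation with both hairpins. The lists were chosen with earlier results of these data known, so their counts are a description and not independent support. Of 13 tested genes that modify proline and lysine in collagen chains, 0 rose and 5 fell in shFoxM1 cells (median log2 fold change -0.43), and 0 rose and 9 fell in shControl cells (median -0.69). Over all tested genes the medians were 0.03 and -0.11, with 12.3% lower and 18.3% higher in shFoxM1 cells and 16.5% lower and 11.7% higher in shControl cells, which is the background for all 6 lists. With equal protein-coding sums 11 fell in shFoxM1 cells, where 3002 of all 12432 tested genes were called lower at that setting. Plod2, a lysyl hydroxylase, had a log2 fold change of -1.05 in shFoxM1 and -1.41 in shControl cells (limma, adjusted p = 0.00179 and 0.00101). P4ha1, the catalytic subunit of a prolyl hydroxylase that stabilises the helix, had -0.70 in shFoxM1 and -1.13 in shControl cells (limma, adjusted p = 0.0048 and 0.000887). P3h1 and P3h3, prolyl hydroxylases of another position, fell with both hairpins too.

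Of 13 chaperones and export factors, 0 rose and 6 fell in shFoxM1 cells (median -0.51), and 0 rose and 9 fell in shControl cells (median -0.80). Sec23a, a coat protein of the vesicles that leave the endoplasmic reticulum, had -0.62 in shFoxM1 and -0.96 in shControl cells (limma, adjusted p = 0.00327 and 0.00078). Fkbp14 and Creb3l2, a proline isomerase and a transcription factor of secretory genes, also fell with both hairpins. Creb3l1, a relative of Creb3l2, fell in shControl cells (-1.16, adjusted p = 0.0203, limma), where 4 alternatives lost the call. In shFoxM1 cells Creb3l1 had -0.76 (adjusted p = 0.0624, limma).

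Of 10 genes that trim and cross-link collagen outside the cell, 1 rose and 5 fell with either hairpin (median -0.42 in shFoxM1 and -0.84 in shControl cells). Adamts2, which removes the leading propeptide, had -1.71 in shFoxM1 and -2.03 in shControl cells (limma, adjusted p = 0.000454 and 0.000536). Bmp1, which removes the trailing propeptide, had -0.93 in shFoxM1 and -1.64 in shControl cells (limma, adjusted p = 0.00182 and 0.000178), and the cross-linking enzymes Loxl1 and Loxl2 fell with both hairpins. The gene that rose was Pcolce2, named here after its values were seen, which enhances trimming by Bmp1. It had 1.50 in shFoxM1 and 1.18 in shControl cells (limma, adjusted p = 0.000838 and 0.0093).

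Of 8 collagen receptors, 0 rose and 5 fell with either hairpin (median -0.87 in shFoxM1 and -1.33 in shControl cells). Mrc2, which takes up collagen for breakdown, was at 23.4 FPKM in activated against 83.0 FPKM in quiescent shFoxM1 cells and 21.8 against 109 FPKM in shControl cells, as group means. Its log2 fold changes were -1.85 and -2.33 (limma, adjusted p = 0.000703 and 0.000557). Itga11, an integrin chain for fibrillar collagen, had -1.28 in shFoxM1 and -2.27 in shControl cells (limma, adjusted p = 4.88e-05 and 3.07e-06), and Itga10, another integrin chain, fell with both hairpins too. Neither Itga10 nor Itga11 reached 1 FPKM in an activated library, so a difference was built into their selection. Adgrg6 also fell with both, but in shFoxM1 cells (-0.78, adjusted p = 0.0463, limma) 13 alternatives lost the call. Of 6 enzymes of collagen breakdown, 0 rose and 2 fell with either hairpin (median -0.27 in shFoxM1 and -0.31 in shControl cells). With equal protein-coding sums 4 fell in shControl cells, where 4200 of all 12432 tested genes were called lower at that setting. The 2 that fell with either hairpin were Mmp2, at -2.13 in shFoxM1 and -2.05 in shControl cells, and its activator Mmp14, at -1.36 in shFoxM1 and -1.70 in shControl cells (limma, adjusted p at most 0.00438). Of 11 matrix partners of collagen fibrils and sheets, 0 rose and 8 fell in shFoxM1 cells (median -1.41), and 0 rose and 10 fell in shControl cells (median -1.36). Dcn, a proteoglycan on fibrils, had -3.12 in shFoxM1 and -2.91 in shControl cells (limma, adjusted p = 1.78e-05 and 0.000154). Fn1, fibronectin, had -1.79 in shFoxM1 and -2.43 in shControl cells (limma, adjusted p = 0.00149 and 0.000805), and the basement membrane genes Nid2 and Lama2 fell with both hairpins. In these lists Loxl2, Fmod and Lama4 also reached 1 FPKM in fewer than 3 activated libraries and so passed the filter through the quiescent ones.

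Several measures moved with the states beside the collagens. The summed level of the 8 markers of differentiating muscle was 24.2, 13.1, 21.5 and 51.6 FPKM in the activated shFoxM1 libraries, against 165, 233, 42.3 and 436 FPKM in the quiescent shFoxM1 libraries. It was 51.5, 36.0 and 41.6 FPKM in the activated shControl libraries, against 145, 836 and 965 FPKM in the quiescent shControl libraries. Activated libraries were lower apart from 1 overlap in shFoxM1 cells. The 3 markers of dividing cells summed to 131 to 286 FPKM in activated and 39.0 to 135 FPKM in quiescent libraries. Fibroblast markers, a list that holds Col1a1 itself and of which Thy1 stayed below 1 FPKM, summed to 32.4 to 44.4 FPKM in activated against 43.7 to 89.8 FPKM in quiescent shFoxM1 libraries. They summed to 26.9 to 63.4 FPKM in activated against 84.5 to 128 FPKM in quiescent shControl libraries. The members of this list did not move together. Cd34 rose, at 18.9 FPKM in activated against 5.19 FPKM in quiescent shFoxM1 cells and 18.2 against 5.03 FPKM in shControl cells (log2 fold change 1.84 and 1.63, limma, adjusted p = 0.00115 and 0.00639). Pdgfra fell, with a log2 fold change of -0.63 in shFoxM1 and -1.37 in shControl cells (limma, adjusted p = 0.0436 and 0.00194), as did Lum and Dpt, which reached 1 FPKM in no activated library. Of the blood, fat and Schwann cell or neuron markers, Cd68, Pparg and Tubb3 were the only ones tested, and each rose. Cd68 had a log2 fold change of 1.28 in shFoxM1 and 2.03 in shControl cells, Pparg 0.98 and 1.2, and Tubb3 1.04 and 1.49 (limma, adjusted p at most 0.0198). The other markers of those lists stayed below 1 FPKM, with Sox10 listed at 0 in every library. Mitochondrial genes held 6.19 to 9.06% of protein-coding FPKM in activated against 5.51 to 16.5% in quiescent shFoxM1 libraries, where replicate 4 was lowest. They held 5.85 to 10.5% in activated against 11 to 12.4% in quiescent shControl libraries. All 4 endothelium markers stayed below 1 FPKM, as did Acan, Matn1, Matn3, Cnmd, Hapln1 and Col2a1 of cartilage, Sp7, Ibsp, Dmp1 and Alpl of bone and Tnmd of tendon. Other markers of such lists were expressed. Scx, Tnc and Mkx of tendon peaked at 99.6, 68.6 and 10.7 FPKM, and Runx2 and Bglap of bone at 24.7 and 2.12 FPKM. Sox9 of cartilage peaked at 21.1 FPKM and Krt14 of epithelium at 15.8 FPKM. Tnc fell on activation (log2 fold change -1.49 in shFoxM1 and -2.24 in shControl cells). Sox9 rose in shFoxM1 cells (0.68, limma, adjusted p = 0.00791). The part of any of these measures in the collagen results was not tested.

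Activated shControl replicate 2 was the lowest activated shControl library for 15 of the 16 members that fell there. Without it, all 17 collagen calls of that comparison were made again, and the median log2 fold change was -1.41. Without the shFoxM1 libraries of replicate 4 the same 17 members were called in shFoxM1 cells. Transcripts of the 19 tested collagens had a median GC content of 56.7% (46.8 to 62.9%) and a median length of 6119 bases, against 49.4% and 3201 bases for all tested genes. With a smooth trend on GC content and length removed, the median log2 fold change of the collagens was -0.89 in shFoxM1 and -1.24 in shControl cells.

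In GENCODE M21 on GRCm38 Col12a1 lies at chr9:79598991-79718831, and Col6a1 at chr10:76708792-76726168 is near Col6a2 at chr10:76595762-76623630. Col3a1 at chr1:45311538-45349706 and Col5a2 at chr1:45374321-45503282 lie tail to tail. Besides Col4a1 at chr8:11198423-11312826 and Col4a2 at chr8:11312805-11449287, the pairs Col4a4 and Col4a3 and Col4a6 and Col4a5 lie head to head. Col4a5 was tested, and the other three were below the threshold. Col3a1, Col4a1, Col4a2, Col5a1 and Col7a1 share annotated exon bases with another gene. Whether strand was used in counting is not given in the sources used here. Col4a1 and Col4a2 share 22 bases on opposite strands. The other partners were at most at 0.78 FPKM, the highest being 2810430I11Rik, which shares 99 bases with Col5a1 on the opposite strand.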

How the data were processed

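The deposited table holds FPKM per gene and library, which its name ties to RSEM and GENCODE gene models. Per the submitters' processing notes, Bowtie 0.12.9, Cufflinks 2.1.1, HTSeq and mm10 were used, with no role given for each. Per the labels' protocols, total RNA was extracted with Trizol and libraries were made with an Illumina TruSeq kit. Depth was estimated here from low values that fall on steps of 1 read, and 94.0 to 94.9% of these lay within 0.25 of a step. Symbols, types of gene (such as protein-coding) and positions came from GENCODE M21, in which 49326 of 49585 identifiers matched. The collagen classes did not come from GENCODE and were assigned separately.

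Genes that reached 1 FPKM in 3 or more libraries entered the test on log2(FPKM + 1) with limma 3.58.1 (R 4.3.3), in 1 model of 4 group means with a trended empirical Bayes step, and p-values were adjusted over all 12432 genes. The test was tried on simulated data. Alternatives were another pseudocount (0.1 FPKM), no filter, equal protein-coding sums, median-of-ratios scaling, removal of a GC and length trend (mgcv 1.9.3), a replicate block, only the groups compared, shFoxM1 libraries 1 to 3, no trend, and leaving out each library. The members, classes and gene lists were chosen with earlier results of these data known. Values in every library are given for members with a group mean of at least 20 FPKM or that passed a test. Up to 4 called genes of each list are named, those with the largest log2 fold change on activation of shControl cells in either direction. Class sums and ratios were not tested. Mmp1a was not analysed here.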

Additional observations from a re-analysis of the deposited data

Results flagged for a closer look

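In each group of 4 libraries, a library was singled out where its gap to the nearest other library was a large part of the group's range (Dixon's 95% limit). Among the 19 tested collagens in both shFoxM1 groups this picked out 2 of 38 sets of libraries, and chance alone picks about 1 in 20. Col11a2 was at 1.07 FPKM in activated shFoxM1 replicate 4, against 0.12 to 0.22 FPKM in the other activated shFoxM1 libraries. Col4a1 was at 114 FPKM in quiescent shFoxM1 replicate 3, against 82.7 to 87.9 FPKM in the other quiescent shFoxM1 libraries.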

How the results depend on the processing

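No alternative made a collagen call in either knockdown comparison or in the difference of responses. In shControl cells 16 collagens fell and 1 rose under every alternative, except that removing the GC and length trend, with or without the block, lost Col4a2. In shFoxM1 cells 14 or 15 fell when libraries were left out, and 1 to 2 rose, and 13 fell with the GC and length trend removed. The number of rising collagens was 1 under equal protein-coding sums and without quiescent shFoxM1 replicate 1 or 2. Over all genes, calls on activation numbered 1903 (without quiescent shControl replicate 2) to 4347 in shControl cells with single libraries left out, with 2196 without activated shControl replicate 2, and 2705 to 4898 in shFoxM1 cells. Without the filter 4 genes were called for the knockdown in quiescent and 1 in activated cells, and leaving out libraries gave 0 to 19 in quiescent cells, with 19 without quiescent shControl replicate 1 and 3 without replicate 2. Uncalled values changed sign. In shControl cells Col11a2 had 0.18 with the GC and length trend removed, with or without the block. Col18a1 there had 0.36 under both of these, 0.10 under median-of-ratios scaling, and -0.16 to 0.19 with libraries left out. In shFoxM1 cells Col4a1 had 0.01 with the trend removed, with or without the block. The cause was not tested. With the replicate number as a block, 3983 genes were called in shControl and 4167 in shFoxM1 cells, with 16 collagens lower and 1 higher, and 14 lower (without Col11a2, adjusted p = 0.0534 from limma) and 2 higher. Correlations of same-numbered libraries ran from -0.205 to 0.381, so the numbers were not taken as pairs. A model of only the groups compared gives no difference of responses. Members at a few hundredths of 1 FPKM rest on few reads.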
